A study of Mus musculus with 8 samples.

Results

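The 35 genes described here mark and build the epithelium of the mouse molar tooth germ, and they were picked by name as 35 of the 35896 genes in a table of RNA-seq counts. They fall into 9 transcription factors, 2 splicing factors, 2 cadherins with EpCAM, 3 claudins, 7 desmosome genes, 5 genes of the hemidesmosome and basement membrane, and 6 genes for proteases, sorting and other functions. Keratins were left out of the choice. The choice used names and not the measured values, although earlier results of these data were known when it was made.

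The germs were dissected from BRE-GFP embryos, which in every group carry GFP under a BMP-responsive element, and were cultured in DMEM with 10% FBS and given 1 day of treatment. Germs of stage E12.5 received SB431542, an inhibitor of the type I receptors for TGF-beta and activin, or SIS3, an inhibitor of Smad3. Germs of stage E13.5 received DMSO, the solvent, and E12.5 germs with DMSO were the control. Each group has 2 deposited columns of estimated counts, and the sources used here give neither the doses nor the number of germs behind a library. The TruSeq RNA Sample Preparation Kit v2 was used for both SIS3 libraries and the SMARTer Universal Low Input RNA Kit for all others, so the kit and SIS3 cannot be told apart.

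The molar begins as a thickening of the oral epithelium that pushes as a bud into the neural-crest-derived mesenchyme and exchanges BMP, FGF, WNT and hedgehog signals with it. The epithelial state rests on transcription factors such as p63 and the Grainyhead-like proteins, on splicing factors that select epithelial isoforms, and on junctions: cadherins and desmosomes tie epithelial cells to each other, claudins seal the space between them, and hemidesmosomes anchor them to the basement membrane. TGF-beta signalling is known in many epithelia to repress this program through Snai and Zeb factors, which bind E2 boxes in the promoters of epithelial genes.

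Promoters are shown for 4 members whose levels are described below and whose windows differ in these motifs. Each sequence is the 250 bases before the annotated start in RefSeq's table for GRCm38.p6, read 5′ to 3′ on the strand of the gene. Capitals mark the E2 box CACCTG, on either strand (CAGGTG), and the GC box GGGCGG bound by Sp and Klf factors, on either strand (CCGCCC); neither motif overlaps the other in these windows.
Epcam, at chr17:87635729-87635978 on the plus strand, with 2 E2 boxes and 1 GC box: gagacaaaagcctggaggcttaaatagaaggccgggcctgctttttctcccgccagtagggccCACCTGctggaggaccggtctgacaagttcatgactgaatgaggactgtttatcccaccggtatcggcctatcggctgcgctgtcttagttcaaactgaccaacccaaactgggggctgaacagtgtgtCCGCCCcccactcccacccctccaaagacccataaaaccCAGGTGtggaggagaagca
Ap1m2, at chr9:21312334-21312583 on the minus strand, with 4 E2 boxes: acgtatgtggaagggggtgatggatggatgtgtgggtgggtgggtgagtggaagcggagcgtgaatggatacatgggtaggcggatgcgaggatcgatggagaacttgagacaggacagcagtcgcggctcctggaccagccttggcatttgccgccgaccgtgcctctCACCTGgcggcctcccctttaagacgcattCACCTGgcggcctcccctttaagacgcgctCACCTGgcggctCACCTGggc
Cldn4, at chr5:134946935-134947184 on the minus strand, with 1 E2 box and 1 GC box: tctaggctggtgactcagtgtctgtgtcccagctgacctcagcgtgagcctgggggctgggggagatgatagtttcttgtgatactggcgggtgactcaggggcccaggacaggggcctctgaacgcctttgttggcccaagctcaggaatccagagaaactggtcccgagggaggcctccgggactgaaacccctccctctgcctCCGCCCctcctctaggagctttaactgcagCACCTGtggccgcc
Dsp, at chr13:38151044-38151293 on the plus strand, with 4 GC boxes and no E2 box: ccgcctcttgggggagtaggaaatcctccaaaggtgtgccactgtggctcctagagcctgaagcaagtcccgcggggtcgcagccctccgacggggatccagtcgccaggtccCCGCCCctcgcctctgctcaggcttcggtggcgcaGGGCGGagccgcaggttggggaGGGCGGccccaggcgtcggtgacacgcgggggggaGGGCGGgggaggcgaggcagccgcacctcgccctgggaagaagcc
The table held a promoter for 17 of the 35 genes, 20 promoters in all. An E2 box was found in promoters of 10 of the 17 genes, in 10 of the 20 promoters, while 17.2% of all 32851 promoters of the table hold one. A GC box was found for 11 of the 17 genes, in 11 of the 20 promoters, and in 32.7% of all promoters. The Grainyhead motif AACCGGTT was in 0 of the 20 promoters and in 0.116% of all, and its looser form AACNGGTT was in 2, those of Rab25 and Sfn, and in 1.79% of all. These matches describe letters in a short window and are no measure of binding.

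The paired columns of SB431542, E13.5 DMSO and E12.5 DMSO had totals that differed by at most 0.00749%. For genes with 1 annotated transcript their median squared difference was 1.26, 1.22 and 1.3 times that expected from dividing 1 set of reads at random. For genes with more transcripts it was 2.2, 1.72 and 2.26 times. Among the members, 3 of 35, 8 of 34 and 1 of 35 had columns more unequal than an even division (exact binomial p under 0.05). The 8 of 34 at E13.5 are more than an even division would give at this threshold. The lowest of their exact binomial p-values were 1.75e-07 for Pkp3, 9.31e-05 for Grhl2 and 0.000126 for Itgb4. The cause of this excess was not tested. Because of the totals and the genes with 1 transcript, the paired columns of these groups were added together and treated as 1 library per group. The SIS3 columns differed in total by 44.5%, with a ratio of 8.05 for genes with 1 transcript, and were kept as SIS3 library 1 and SIS3 library 2. The 5 libraries hold 28161788 counts (SB431542), 5995709 and 9427262 (SIS3 libraries 1 and 2), 17519118 (E13.5 DMSO) and 30975010 (E12.5 DMSO). Unless another test is named, p-values below come from edgeR's quasi-likelihood test over 19022 genes, adjusted p by Benjamini-Hochberg, and their measure of spread comes from the SIS3 pair alone, which may be technical because nothing in the labels says that these libraries came from separate cultures. The SB431542 and E13.5 comparisons have no replicate check of their own, and all comparisons share the E12.5 DMSO library.

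The labelled tissue held the markers of an epithelium among much mesenchyme. In the E12.5 DMSO library the 35 genes summed to 379.1 CPM (the count of a gene relative to all counts of its library) and 7 keratins of basal and simple epithelia to 128.2 CPM, while 32 mesenchyme markers summed to 22310 CPM. All 35 genes had counts in that library, and 34 passed the filter on low counts. Prom2, which encodes a pentaspan membrane protein of epithelial protrusions, had 5 counts there and was not tested. Rab25 passed the filter through the E13.5 library alone, and Ovol1 and Cldn7 through the E13.5 library and SIS3 library 2. In these whole germs fewer epithelial cells and less RNA per epithelial cell cannot be told apart.

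Per kilobase of exon, the levels in the E12.5 DMSO library were highest for Dsp (10.3 CPM per kb), Itga6 (7.07 CPM per kb) and Sfn (7.03 CPM per kb). Perp (4.28 CPM per kb), Dsc3 (3.99 CPM per kb), Epcam (3.69 CPM per kb), Cdh1 (3.24 CPM per kb) and Col17a1 (3.13 CPM per kb) came next. Genes of junctions and adhesion thus held most of the first places on this scale, and Sox2 (2.24 CPM per kb) and Trp63 (1.99 CPM per kb) were the first transcription factors. The order ended with Cldn7 (0.182 CPM per kb), Rab25 (0.174 CPM per kb), Ovol1 (0.111 CPM per kb) and Prom2 (0.0311 CPM per kb). A single library stands behind this order, so neighbours in it could not be compared against replicate error.

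The SIS3 libraries stood apart from each other in these genes before any comparison with DMSO. On TMM-scaled counts, 27 of the 35 genes were at least 2-fold higher in SIS3 library 2 than in library 1 and 0 were 2-fold lower. Of all 19022 tested genes, 9.69% were at least 2-fold higher and 1710 genes at least 2-fold lower. The median log2 ratio of library 2 over library 1 was 2.02 for the 35 genes and 0 for all tested genes. Ovol1 and Rab25 had 0 counts in library 1, and with them set to 3 counts the median was 1.91 and 26 genes were 2-fold higher. The median log2 ratio of library 2 over library 1 was 2.02 for the 7 keratins as well, but 0.83 for 49 other epithelial genes, of which 23 were at least 2-fold higher and 7 at least 2-fold lower, and 0.66 for 21 dental epithelium signals, of which 10 were higher and 3 lower by that measure. It was -0.20 for the mesenchyme markers, -0.17 for 20 endothelial markers and -0.63 for 17 proliferation genes, of which 8 were at least 2-fold lower. The means over both SIS3 libraries given below therefore lie between values that often fall on opposite sides of DMSO.

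**Figure D1:**
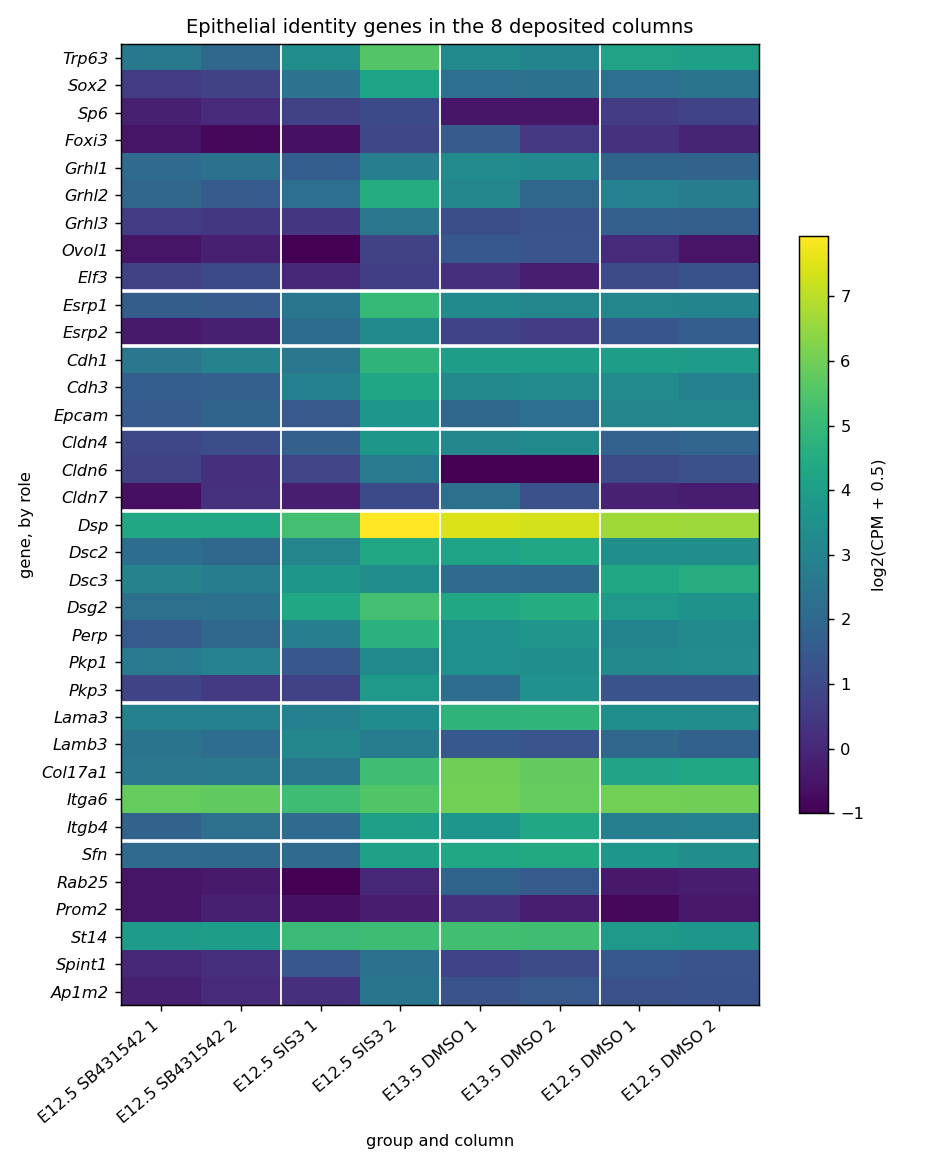
Level of each of the 35 genes, by role, in the 8 deposited columns (colour, log2 of CPM + 0.5; dark is low, yellow is high). The paired columns of SB431542, E13.5 DMSO and E12.5 DMSO look alike in most rows, while SIS3 column 2 is brighter than SIS3 column 1 in most rows, as for Dsp with 38.0 CPM in library 1 and 243 CPM in library 2.

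After SB431542 most of the epithelial genes were at lower levels than in DMSO, but none passed the test. In the SB431542 library 30 of the 35 genes were lower and 5 higher than in the E12.5 DMSO library, and the 35 genes summed to 175.2 CPM in the SB431542 library and 379.1 CPM in the E12.5 DMSO library. The genes furthest below DMSO included Esrp2, an epithelial splicing regulator, the desmosome gene Dsp and the progenitor factor Sox2. Grhl1, Lamb3, Prom2, Cldn7 and St14 were the 5 at or above the DMSO level, with log2 ratios from 0.17 to 0.68.
Of all 19022 tested genes, 4.38% were at least 2-fold lower and 1387 genes at least 2-fold higher in this comparison. Of the 35 genes, 0 were at least 2-fold higher and 21 at least 2-fold lower. By role these were 6 of 9 transcription factors, 2 of 2 splicing factors, 3 of 3 cadherins and EpCAM, 1 of 3 claudins, 5 of 7 desmosome genes, 1 of 5 hemidesmosome and basement membrane genes, and 3 of 6 of the remaining genes. The median fitted log2 fold change of the 34 tested genes was -1.40, against 0.002 over all tested genes. By edgeR 0 of the 34 passed, as did 0% of all tested genes in either direction; at an unadjusted p under 0.05, 4 of the 34 were lower and 0 higher, and over all genes 127 were lower and 108 higher. The 4 members were Esrp2 (log2 fold change -2.95, SE 1.05), Sox2 (-2.16, SE 0.93), Dsc3 (-1.71, SE 0.61) and Dsg2 (-1.503, SE 0.57), each with an adjusted p of 1 by edgeR. DESeq2 called 0 members and 4 genes in all.
Among the other lists, all 7 keratins were at least 2-fold lower in the SB431542 library, with a median log2 ratio of -1.72. The median log2 ratio was -0.59 for 49 other epithelial genes and -0.77 for 21 dental epithelium signals, of which 17 were lower and 4 higher. It was -0.16 for the mesenchyme markers, 0.01 for the endothelial markers and -0.70 for 17 proliferation genes. The part of cell proportions in these values was not tested.

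SIS3 gave no common direction, because its libraries lay on both sides of DMSO. SIS3 library 1 had 30 of the 35 genes lower and 5 higher than the E12.5 DMSO library, whereas SIS3 library 2 had 30 higher and 5 lower. The summed level was 241.3 CPM in SIS3 library 1 and 756.6 CPM in SIS3 library 2, against 379.1 CPM in the E12.5 DMSO library. St14, the matriptase protease gene, was the one member with nearly the same level in both SIS3 libraries that was also 2-fold higher than DMSO in each.
In SIS3 library 1, 12 genes were at least 2-fold lower than in DMSO, or 10 with Ovol1 and Rab25 set to 3 counts, against 21% of all tested genes. In SIS3 library 2, 19 were at least 2-fold higher, against 9.65% of all tested genes. All 3 claudins and both splicing factors were among these 19, but 1 of 5 hemidesmosome and basement membrane genes. The median log2 ratio to DMSO was -0.72 in SIS3 library 1, or -0.60 with the 2 genes at 0 set to 3 counts, and 1.07 in SIS3 library 2.
By edgeR over both libraries 0 of the 34 tested members were called in either direction, while 0.794% of all tested genes were called higher and 3.03% lower. At an unadjusted p under 0.05, 2 members were higher and 1 lower, and DESeq2 called 0. The median fitted log2 fold change of the members was 0.54, against 0 over all tested genes. It was -0.72 without SIS3 library 2 and 1.08 without SIS3 library 1, so the direction of this median rests on 1 library.
The SIS3 libraries also differed from DMSO in markers of other cells. The endothelial markers summed to 108.4 CPM in SIS3 library 1 and 101.4 CPM in SIS3 library 2, against 597.4 CPM in the E12.5 DMSO library, and 15 of the 20 fell by edgeR's test with 0 rising. The mesenchyme markers summed to 15000 CPM and 12770 CPM in SIS3 libraries 1 and 2, against 22310 CPM in the E12.5 DMSO library, and 6 of 32 fell. Without Col1a1, Col1a2, Col3a1 and Col5a1, a choice made after the values were seen, the other 28 mesenchyme markers summed to 9874 CPM and 7993 CPM in SIS3 libraries 1 and 2, against 10620 CPM in the E12.5 DMSO library. Of the 32, 10 were higher than DMSO in SIS3 library 1 and 5 in SIS3 library 2. Of 17 proliferation genes 5 fell. The kit differs in the same way as SIS3, and the part of kit, depth and cell proportions in the members' values was not tested.

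Between the stages the genes differed in both directions. Of the 35 genes, 22 were higher and 13 lower in the E13.5 DMSO library than in the E12.5 DMSO library, and the sum was 550.3 CPM in the E13.5 DMSO library and 379.1 CPM in the E12.5 DMSO library. Dsc3, which encodes desmocollin 3, a desmosomal cadherin, was lower at E13.5, with a log2 fold change of -2.46, and was the only one of 34 members under an adjusted p of 0.05 by edgeR (adjusted p = 0.0414, SE 0.64, 95% interval -3.84 to -1.09). Each stage is 1 library, so this p, SE and interval carry the spread of the SIS3 pair and do not measure the error of either stage. Values at least 2-fold higher were seen for Foxi3, Grhl1, Ovol1, Cldn4, Cldn7, Pkp3, Lama3, Col17a1, Itgb4, Rab25, Prom2 and St14, none past the test, Prom2 being untested. Beside Dsc3, values at least 2-fold lower were seen for Sp6, Elf3, Esrp2, Epcam and Cldn6, none past the test.
At least 2-fold higher were 12 of the 35 genes, against 24% of all tested genes, and at least 2-fold lower were 6, against 14.2% of all tested genes. The 12 held 3 of 5 hemidesmosome and basement membrane genes and 0 of 3 cadherins and EpCAM. By edgeR 0 members were called higher and 1 lower, while 4.06% of all tested genes were called higher and 1.17% lower; the share of members past the test was near the background. The median fitted log2 fold change of the 34 tested members was 0.24, against -0.001 over all tested genes, and 0.72 among members that average at least 5 CPM.
The call of Dsc3 rested on the choice of libraries and test. The adjusted p was 0.0649 without E12.5 DMSO column 2, 0.072 and 0.0802 without E13.5 DMSO column 1 and 2, 0.0812 by DESeq2 and 0.153 when limited to genes that average at least 5 CPM. The log2 fold change stayed between -2.48 and -2.34 in these fits.

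**Figure D2:**
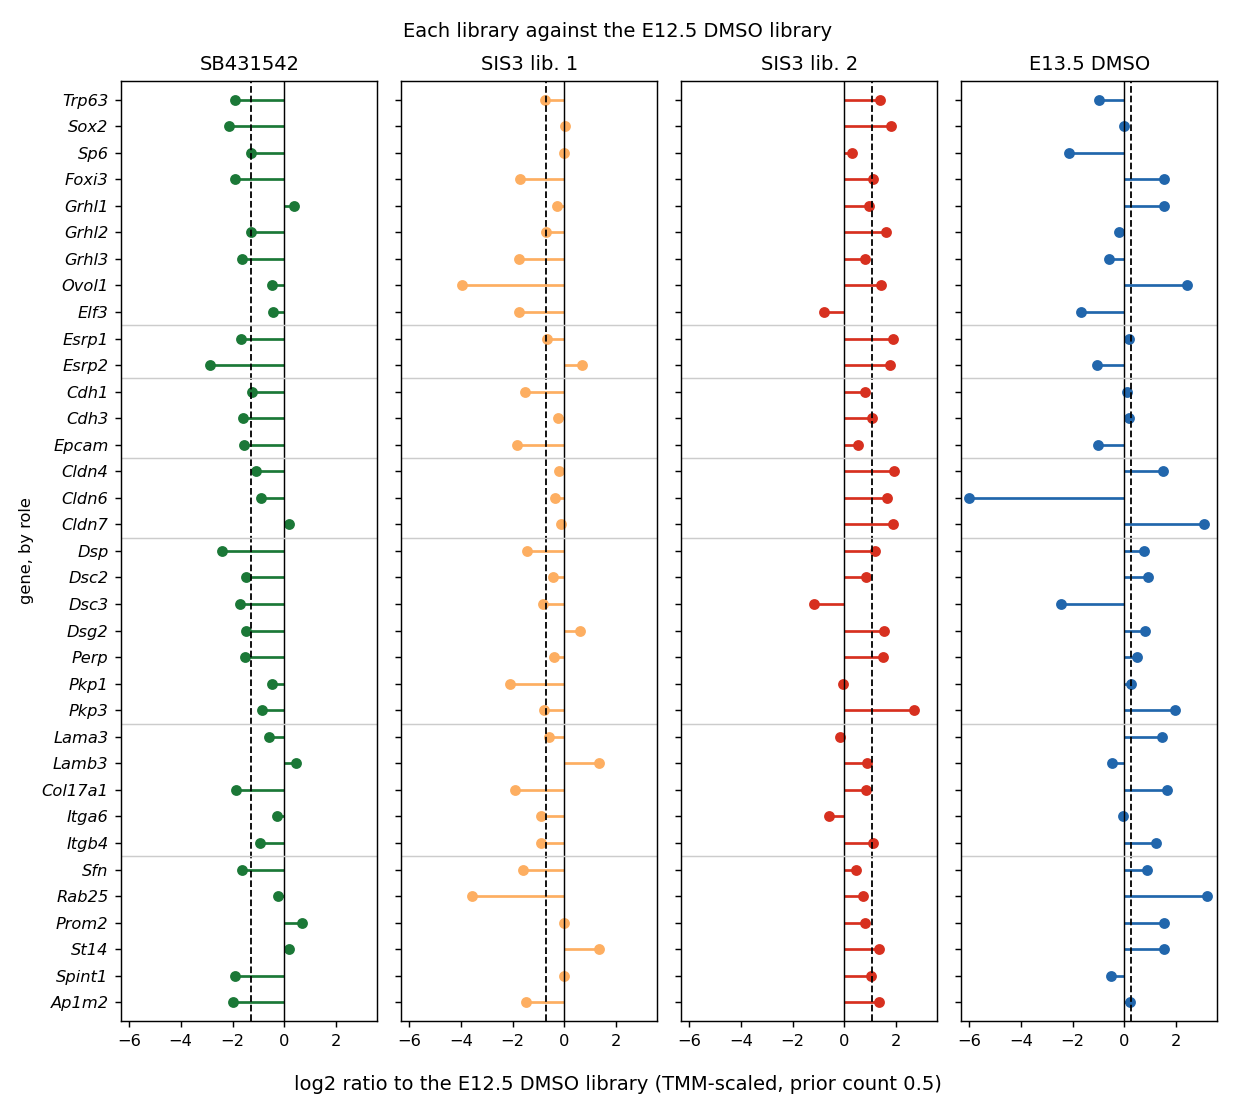
Log2 ratio of each library to the E12.5 DMSO library for each of the 35 genes, by role (points; the dashed line is the median of the 35). The medians lie at -1.29 for SB431542, -0.72 and 1.07 for SIS3 libraries 1 and 2 and 0.26 for E13.5 DMSO; the values of Cldn6 at E13.5 and of Ovol1 and Rab25 in SIS3 library 1 come from 0 counts and depend on the prior count.

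The transcription factors set the epithelial program. Trp63 encodes p63, without which stratified epithelia and teeth do not form, and it had 4.62 CPM in the SB431542 library, 10.2 and 46.6 CPM in SIS3 libraries 1 and 2, and 8.33 CPM in the E13.5 DMSO library, against 16.7 CPM in the E12.5 DMSO library. Only SIS3 library 2 stood above the E12.5 DMSO level. Its fitted log2 fold changes were -1.90 (SE 1.13) for SB431542, 0.69 (SE 0.97) for SIS3 and -0.97 (SE 1.11) for E13.5, with adjusted p of 1, 0.809 and 0.668 by edgeR.
Sox2, a marker of progenitor cells in the dental epithelium, had 1.07 CPM after SB431542, 4.84 and 17.5 CPM in SIS3 libraries 1 and 2, and 4.51 CPM at E13.5, against 4.62 CPM in the E12.5 DMSO library. The level was nearly the same at both stages with DMSO. The log2 fold change for SB431542 was -2.16 (95% interval -4.22 to -0.10, unadjusted p = 0.0412, adjusted p = 1 by edgeR).
Sp6, also called epiprofin and required for enamel-forming cells, had 0.462 CPM after SB431542, 1.17 and 1.49 CPM in SIS3 libraries 1 and 2, and 0.228 CPM at E13.5, against 1.13 CPM in the E12.5 DMSO library. These rest on 13, 7, 14, 4 and 35 counts. Of the 31-base words of Sp6, 86.6% also occur in other genes, and Gm11532 overlaps it on the opposite strand, so its counts are uncertain.
Foxi3, a forkhead factor of ectodermal appendages, had 0.142 CPM after SB431542, 0.167 and 1.38 CPM in SIS3 libraries 1 and 2, and 1.71 CPM at E13.5, against 0.581 CPM in the E12.5 DMSO library. At 1 to 30 counts per library these differences were not detectable by the test, with adjusted p of 1, 0.944 and 0.55.

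The Grainyhead-like genes, which encode activators of epithelial junction genes, did not share a direction after SB431542. Grhl2 and Grhl3 were lower after SB431542, at 2.91 and 0.923 CPM against 6.91 and 2.81 CPM in the E12.5 DMSO library. Grhl1 had 4.19 CPM after SB431542, 2.67 and 6.58 CPM in SIS3 libraries 1 and 2, and 8.91 CPM at E13.5, against 3.13 CPM in the E12.5 DMSO library. The log2 fold change of Grhl1 at E13.5 was 1.54 (SE 0.83, adjusted p = 0.279 by edgeR), and that of Grhl2 was -0.22 (SE 1.08, adjusted p = 0.932). Ovol1, a zinc-finger repressor that favours the epithelial state, had 38 counts at E13.5 and 12 counts in the E12.5 DMSO library, a fitted difference of 2.50 on the log2 scale (SE 1.61, adjusted p = 0.377). It passed the filter only through the E13.5 library and SIS3 library 2, where it was highest, and not through the E12.5 DMSO library. A share of 20.5% of its 31-base words lies in other genes. Elf3, an ETS factor of epithelia, had 9 counts at E13.5 and 53 in the E12.5 DMSO library (log2 fold change -1.69, SE 1.29, adjusted p = 0.457).

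Esrp1 and Esrp2 encode splicing regulators that select epithelial isoforms such as the IIIb form of Fgfr2. Esrp1 had 2.56 CPM after SB431542, 5.17 and 30.9 CPM in SIS3 libraries 1 and 2, and 8.68 CPM at E13.5, against 7.88 CPM in the E12.5 DMSO library. SIS3 library 2 stood above all others. Esrp2 had 0.320 CPM after SB431542, 4.003 and 8.91 CPM in SIS3 libraries 1 and 2, and 1.14 CPM at E13.5, against 2.42 CPM in the E12.5 DMSO library. Both SIS3 libraries were above DMSO for Esrp2 and the SB431542 library, with 9 counts, was the lowest.

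Cdh1, the gene of E-cadherin, had 6.39 CPM after SB431542, 5.34 and 27.8 CPM in SIS3 libraries 1 and 2, and 15.5 CPM at E13.5, against 14.8 CPM in the E12.5 DMSO library. Its levels at both stages differed little, and SIS3 libraries 1 and 2 lay below and above them. The log2 fold change for SB431542 was -1.27 with a 95% interval from -4.44 to 1.91, and adjusted p was 1 by edgeR. Cdh3, the gene of P-cadherin, which hair and tooth placodes express, had a log2 fold change of -1.61 for SB431542 (SE 0.75, unadjusted p = 0.0512).
Epcam, an adhesion protein of simple and progenitor epithelia, had 2.84 CPM after SB431542, 2.34 and 12.52 CPM in SIS3 libraries 1 and 2, and 3.88 CPM at E13.5, against 8.10 CPM in the E12.5 DMSO library. It was lower than DMSO in every library except SIS3 library 2. At E13.5 Epcam and Cdh1 differed in their log2 fold changes, at -1.03 (SE 1.05) and 0.10 (SE 1.15), within these errors.

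Claudins form the seal of tight junctions, and 0 of 3 were called in any comparison by edgeR, with 1 higher and 1 lower at an unadjusted p under 0.05 for E13.5 and 0 for both inhibitors. Cldn6, a claudin of embryonic epithelia, had 26 counts (0.923 CPM) after SB431542, 8 and 54 counts (1.33 and 5.73 CPM) in SIS3 libraries 1 and 2, and 0 counts at E13.5, against 52 counts (1.68 CPM) in the E12.5 DMSO library. A count of 0 allows up to 0.171 CPM at the depth of the E13.5 library, taking 3 counts as the limit. Against the measured E12.5 DMSO level this is at least 9.8-fold lower, leaving out the counting error of the 52 counts. The adjusted p was 0.065 by edgeR. At E13.5, 7 of 49 other epithelial genes and 6 of 21 dental epithelium signals also had 0 counts, as did 969 of 19022 tested genes. In the E12.5 DMSO library 0 genes of either list and 986 tested genes did.
Cldn4 had 1.53 CPM after SB431542, 2.84 and 12.7 CPM in SIS3 libraries 1 and 2, and 8.79 CPM at E13.5, against 3.13 CPM in the E12.5 DMSO library. Its log2 fold change at E13.5 was 1.52 (SE 0.97, adjusted p = 0.379). Cldn7 had 55 counts at E13.5 and 11 counts in the E12.5 DMSO library, a fitted log2 difference of 3.15 (SE 1.36, adjusted p = 0.177). It passed the filter only through the E13.5 library and SIS3 library 2, where it was highest, and not through the E12.5 DMSO library. The paired E13.5 columns of Cldn7 held 39 and 16 counts, more unequal than an even division would give (exact binomial p = 0.00267).

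Desmosomes join the intermediate filaments of neighbouring cells. Dsp, the gene of desmoplakin and the most abundant member, had 19.6 CPM after SB431542, 38.0 and 243 CPM in SIS3 libraries 1 and 2, and 164 CPM at E13.5, against 99.4 CPM in the E12.5 DMSO library. The SIS3 libraries stood on either side of DMSO by more than 2-fold, and this spread gave a 95% interval for the SB431542 log2 fold change of -2.39 that ran from -19.3 to 14.5.
Dsc3 had 6.82 CPM after SB431542, 12.7 and 10.1 CPM in SIS3 libraries 1 and 2, and 3.82 CPM at E13.5, against 21.6 CPM in the E12.5 DMSO library. It was lower than DMSO in all 4 other libraries and was one of 2 members lower in SIS3 library 2 than in library 1. Its columns held 34 and 33 counts at E13.5 and 312 and 356 counts in the E12.5 DMSO pair. Each pair is counted as 1 library, so this is no check between replicates. The other desmocollin of the set, Dsc2, was higher at E13.5, with 19.0 CPM against 10.2 CPM in the E12.5 DMSO library (log2 fold change 0.92, SE 0.67, adjusted p = 0.44).
Dsg2, a desmoglein of simple and progenitor epithelia, had 4.55 CPM after SB431542, 19.7 and 38.3 CPM in SIS3 libraries 1 and 2, and 21.01 CPM at E13.5, against 12.4 CPM in the E12.5 DMSO library. It was above DMSO in both SIS3 libraries (log2 fold change 1.15, SE 0.51, adjusted p = 0.273). Perp, a membrane protein of desmosomes and a p63 target, had log2 fold changes of -1.54 for SB431542, 0.85 for SIS3 and 0.49 for E13.5, with SE of 0.78 to 0.90.
Pkp3, a plakophilin that links desmosomal cadherins to desmoplakin, had 1.10 CPM after SB431542, 1.17 and 13.6 CPM in SIS3 libraries 1 and 2, and 7.48 CPM at E13.5, against 1.97 CPM in the E12.5 DMSO library. Among members with counts in both SIS3 libraries it differed most between them. Its E13.5 columns held 36 and 95 counts (exact binomial p = 1.75e-07), so its E13.5 level is uncertain. The other plakophilin, Pkp1, had 6.71 CPM after SB431542 and 10.6 CPM at E13.5, against 9.07 CPM in the E12.5 DMSO library.

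Hemidesmosome and basement membrane genes fasten the epithelium to the mesenchyme side. Itga6, the alpha chain of the hemidesmosome integrin, which endothelial cells also express, had 54.9 CPM after SB431542, 35.4 and 45.0 CPM in SIS3 libraries 1 and 2, and 60.1 CPM at E13.5, against 63.8 CPM in the E12.5 DMSO library. Both SIS3 libraries were below all others, a fitted log2 difference of -0.74 (SE 0.33, adjusted p = 0.266 by edgeR), beside the fall of the endothelial markers given above. Its partner Itgb4 had 3.76 CPM after SB431542, 3.84 and 15.9 CPM in SIS3 libraries 1 and 2, and 16.0 CPM at E13.5, against 6.91 CPM in the E12.5 DMSO library. Itgb4 was thus high in SIS3 library 2 and at E13.5, as Dsp was, and its log2 fold change at E13.5 was 1.24 (SE 0.90, adjusted p = 0.451). The E13.5 columns of Itgb4 held 108 and 172 counts (exact binomial p = 0.000126), so its E13.5 level is uncertain.
Col17a1, the transmembrane collagen of hemidesmosomes, had 5.36 CPM after SB431542, 5.17 and 36.0 CPM in SIS3 libraries 1 and 2, and 58.5 CPM at E13.5, against 18.8 CPM in the E12.5 DMSO library. Its highest level was at E13.5. The spread between the SIS3 libraries left a 95% interval from -6.57 to 9.90 around the E13.5 log2 fold change of 1.67.
Lama3 and Lamb3 encode chains of one epithelial laminin. Lama3 had 28.0 CPM at E13.5 and 10.3 CPM in the E12.5 DMSO library, a fitted log2 difference of 1.48 (SE 0.59, unadjusted p = 0.0252, adjusted p = 0.146). Lamb3 had 4.47 CPM after SB431542, 8.17 and 6.15 CPM in SIS3 libraries 1 and 2, and 2.17 CPM at E13.5, against 3.13 CPM in the E12.5 DMSO library. Lamb3 was above DMSO under both inhibitors and below it at E13.5, none of it past the test, with adjusted p of 1, 0.479 and 0.756. Hsd11b1 on the opposite strand and other genes overlap the span of Lamb3, and 1.33% of its 31-base words occur in other genes.

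St14 encodes matriptase, a membrane protease of epithelia, and Spint1 its inhibitor. St14 had 15.0 CPM after SB431542, 33.7 and 35.3 CPM in SIS3 libraries 1 and 2, and 36.4 CPM at E13.5, against 12.9 CPM in the E12.5 DMSO library. Both SIS3 libraries and the E13.5 library were more than 2-fold above DMSO, with log2 fold changes of 1.35 (SE 0.41, adjusted p = 0.0956) for SIS3 and 1.53 (SE 0.45, adjusted p = 0.0655) for E13.5. Neither passed the test. Spint1 had 0.568 CPM after SB431542, 2.17 and 4.56 CPM in SIS3 libraries 1 and 2, and 1.43 CPM at E13.5, against 2.10 CPM in the E12.5 DMSO library.
Ap1m2, the epithelial clathrin adaptor subunit that sorts proteins to the basolateral membrane, had 0.462 CPM after SB431542, 0.667 and 4.99 CPM in SIS3 libraries 1 and 2, and 2.11 CPM at E13.5, against 1.84 CPM in the E12.5 DMSO library. Apart from Ovol1 and Rab25, with 0 counts in SIS3 library 1, and Pkp3 and Foxi3, it had the largest ratio between the SIS3 libraries, a log2 ratio of 2.81. Sfn, the gene of stratifin, had 3.76 CPM after SB431542, 3.84 and 16.7 CPM in SIS3 libraries 1 and 2, and 20.3 CPM at E13.5, against 11.3 CPM in the E12.5 DMSO library, and 26.8% of its 31-base words lie in other genes. Rab25, a small GTPase of recycling endosomes in epithelia, had 49 counts at E13.5 and 9 counts in the E12.5 DMSO library, a fitted log2 difference of 3.27 (SE 1.55, adjusted p = 0.216). It was tested only because its E13.5 level passed the filter, so this difference was selected by its own value.

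Pairs of related members were also set against each other within each library, as shares of their summed counts with exact (Clopper-Pearson) binomial 95% intervals that cover counting error only. These pairs were chosen after the values had been seen, and the shares are a description. A share depends on the lengths of both genes and is compared only between libraries.
Dsc3 made up 64.0% of Dsc3 and Dsc2 counts after SB431542 (58.3 to 69.4%), 61.8% and 34.1% in SIS3 libraries 1 and 2, and 16.8% at E13.5 (13.3 to 20.8%), against 67.8% in the E12.5 DMSO library (64.8 to 70.7%). The intervals of E13.5 and of SIS3 library 2 lay below that of DMSO, while that of SB431542 overlapped it. Cldn6 made up 37.7% of Cldn6 and Cldn4 counts after SB431542, 32% and 31% in SIS3 libraries 1 and 2, and 0 of 154 at E13.5, which allows up to 2.37%, against 34.9% in the E12.5 DMSO library (27.3 to 43.1%). Only the E13.5 share lay apart.
Grhl1 made up 59.0% of Grhl1 and Grhl2 counts after SB431542 (51.8 to 65.9%), 38.1% and 22.4% in SIS3 libraries 1 and 2, and 60.5% at E13.5 (54.2 to 66.5%), against 31.2% in the E12.5 DMSO library (26.1 to 36.7%). The SB431542 and E13.5 intervals both lay above that of DMSO. The paired E13.5 columns of Grhl2 held 71 and 31 counts (exact binomial p = 9.31e-05), a spread beyond these intervals.
Lamb3 made up 38.9% of Lamb3 and Lama3 counts after SB431542 (33.5 to 44.4%), 53.8% and 38.9% in SIS3 libraries 1 and 2, and 7.2% at E13.5 (5.14 to 9.74%), against 23.4% in the E12.5 DMSO library (19.4 to 27.7%). The Lamb3 share thus lay above that of DMSO in all 3 inhibitor libraries and below it at E13.5. The level of Lama3 itself was below DMSO in the inhibitor libraries and above it at E13.5. Pkp3 made up 14.1% of Pkp3 and Pkp1 counts after SB431542, 35% and 59.5% in SIS3 libraries 1 and 2, and 41.3% at E13.5, against 17.8% in the E12.5 DMSO library. Cdh3 made up 30.2% of Cdh3 and Cdh1 counts after SB431542, 57.3% and 39.8% in SIS3 libraries 1 and 2, and 36.9% at E13.5, against 35.5% in the E12.5 DMSO library, and SIS3 library 1 was the one library with an interval (45.4 to 68.7%) above that of DMSO (32.0 to 39.2%).
The remaining 5 of the 11 pairs computed were these. Grhl3 made up 24.1% of Grhl3 and Grhl2 counts after SB431542, 16.1% and 18.9% in SIS3 libraries 1 and 2, and 23.9% at E13.5, against 28.9% in the E12.5 DMSO library. Esrp2 made up 11.1% of Esrp2 and Esrp1 counts after SB431542, 43.6% and 22.4% in SIS3 libraries 1 and 2, and 11.6% at E13.5, against 23.5% in the E12.5 DMSO library. The interval of SIS3 library 1 (30.3 to 57.7%) lay above that of DMSO (19 to 28.6%), and that of E13.5 (7.25 to 17.4%) lay below it. Itgb4 made up 6.41% of Itgb4 and Itga6 counts after SB431542, 9.79% and 26.1% in SIS3 libraries 1 and 2, and 21% at E13.5, against 9.77% in the E12.5 DMSO library. Dsg2 made up 18.8% of Dsg2 and Dsp counts after SB431542, 34.1% and 13.6% in SIS3 libraries 1 and 2, and 11.3% at E13.5, against 11.1% in the E12.5 DMSO library. The Dsg2 share was thus nearly equal at both stages. Cldn7 made up 21.8% of Cldn7 and Cldn4 counts after SB431542, 10.5% and 10.4% in SIS3 libraries 1 and 2, and 26.3% at E13.5, against 10.2% in the E12.5 DMSO library.

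**Figure D3:**
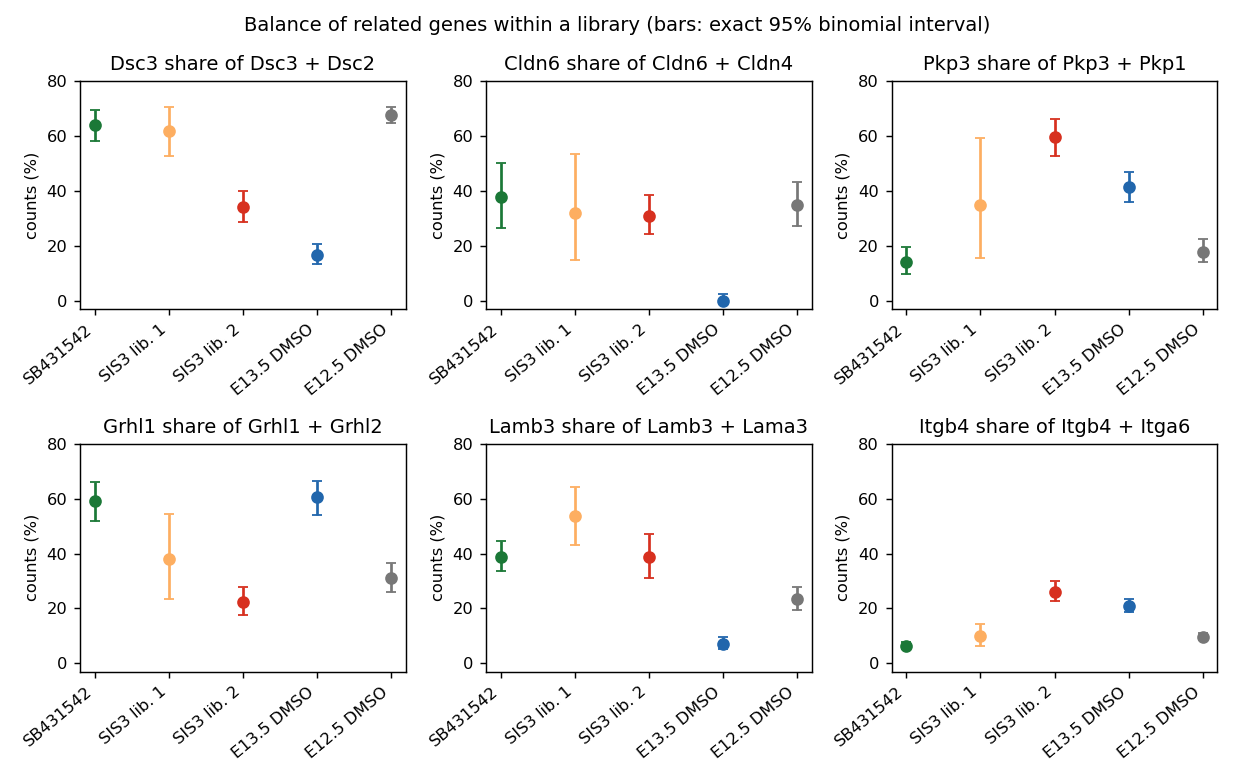
Share of the first gene in the summed counts of 6 pairs of related genes (percent; points are libraries, bars are exact 95% binomial intervals for counting error only). The Dsc3 share is 16.8% and the Cldn6 share 0% at E13.5, against 67.8% and 34.9% in the E12.5 DMSO library.

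Epithelial genes outside the set were read beside it. Of 21 factors and signals of the dental epithelium 18 were tested, and by edgeR 0 passed for SB431542, 2 fell for SIS3 and 1 was called lower for E13.5. Dlx3, a homeobox factor of ectodermal appendages that the mesenchyme also expresses, had 8.88 CPM after SB431542 and 1.17 and 4.24 CPM in SIS3 libraries 1 and 2, against 22.0 CPM in the E12.5 DMSO library, and fell with SIS3 (log2 fold change -3.04, SE 0.61, adjusted p = 0.025). Tbx1, a T-box factor of the early dental epithelium, fell with SIS3 too (log2 fold change -3.42, SE 0.89, adjusted p = 0.0495 by edgeR). It had 0.667 and 0.530 CPM in SIS3 libraries 1 and 2, from 4 and 5 counts, against 6.07 CPM in the E12.5 DMSO library. Its level was also below DMSO after SB431542, at 2.59 CPM, and at E13.5, at 0.799 CPM, so the lower level was not particular to SIS3. Dlx3 and Tbx1 were low in both SIS3 libraries, unlike most of the 35 genes.
Wnt6, a WNT ligand of epithelia, had 0 counts at E13.5 and 75 counts in the E12.5 DMSO library. Its adjusted p of 0.0296 by edgeR compares 1 library of each stage on the spread of the SIS3 pair. Shh, the hedgehog ligand of the epithelial signalling centre, had 3 counts or fewer in each library other than the E12.5 DMSO library, where it had 6.
Of 49 other epithelial genes 47 were tested and 0 were called in any comparison by edgeR; at an unadjusted p under 0.05, 0 were higher and 1 lower for SB431542, 0 higher and 1 lower for SIS3, and 6 higher and 2 lower for E13.5. Their median log2 ratios to DMSO were -0.59 for SB431542, -0.15 and 0.71 in SIS3 libraries 1 and 2, and 0.06 for E13.5. Those furthest from DMSO after SB431542, of genes that average at least 5 CPM, were Trim29 (-2.04, SE 0.90), Bcam (-1.54, SE 1.12) and Spint2 (-1.36, SE 0.75), each with an adjusted p of 1. For SIS3 they were Bnc1 (2.14, SE 1.02), Cdcp1 (1.14, SE 0.81) and Cd24a (0.96, SE 0.46). Bnc1 had 61.5 CPM in SIS3 library 1 and 15.7 CPM in library 2, a difference opposite to that of most of the 35 genes. For E13.5 they were Als2cl (2.92, SE 1.03), Elf5 (1.89, SE 0.69) and Macc1 (1.87, SE 0.63). The keratins had median log2 ratios of -1.72 for SB431542, -1.20 and 0.82 in SIS3 libraries 1 and 2, and 0.66 for E13.5, with 0 of 7 called by edgeR in any comparison and 0 at an unadjusted p under 0.05.

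**Figure D4:**
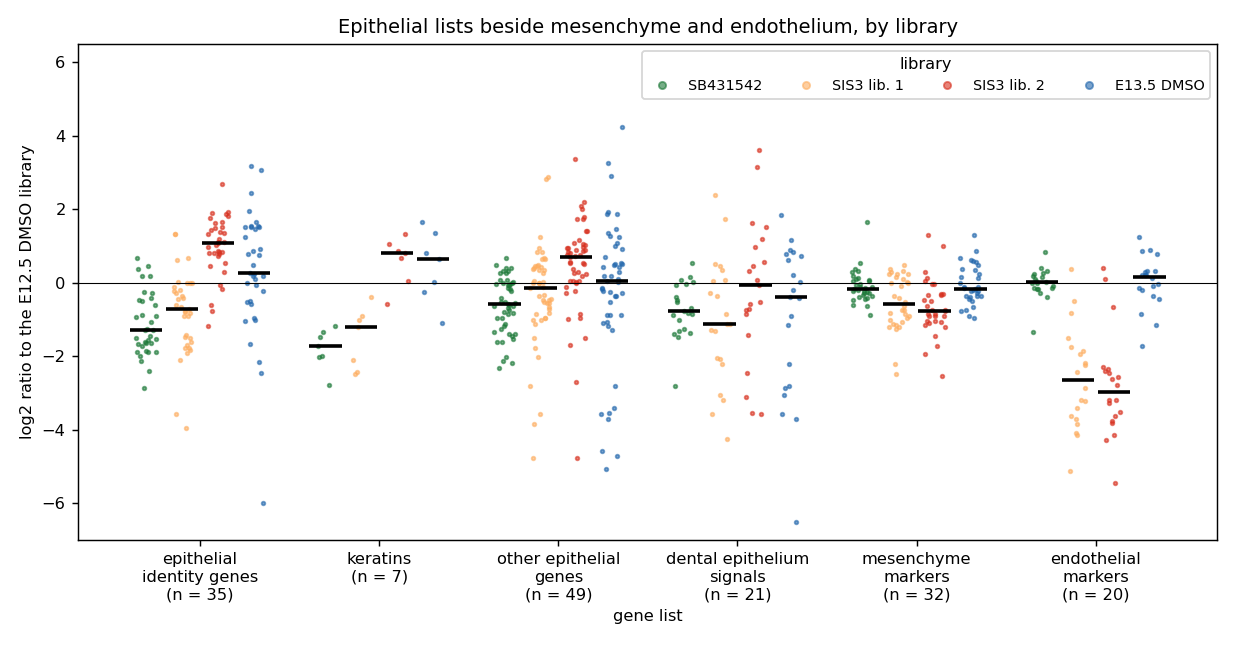
Log2 ratio of each library to the E12.5 DMSO library for the 35 epithelial identity genes and 5 other lists (points are genes, bars are medians). In SIS3 libraries 1 and 2 the 35 genes have medians of -0.72 and 1.07 and the endothelial markers -2.65 and -2.99; after SB431542 the medians are -1.29 and 0.01.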

How the data were processed

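RNA-seq of cultured molar tooth germs was deposited as 1 unscaled table of estimated counts, whole numbers for each gene. DESeq2, HISAT2, Salmon, SAMtools and deepTools are listed in the submitters' processing notes with neither role nor version, beside the build mm10. The sources used here do not give the annotation. Estimated counts, as from Salmon, can pass between genes that share sequence. Columns were matched to samples by name. Of 35896 gene IDs, 35437 matched the table of gene names. Positions, exon lengths, transcript numbers and 31-base words shared with other genes came from GENCODE's annotation and transcripts of GRCm38.

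The paired columns of 3 groups were summed, which left 5 libraries. The libraries hold 5995709 to 30975010 counts. The limit used for a library at 0, 3 counts, is 0.0969 to 0.5 CPM and covers counting error only. CPM was computed from the deposited counts and the library totals. edgeR 4.0.16 (R 4.3.3) was fitted to the counts of all 4 groups with TMM scaling, filterByExpr (19022 genes kept, about 0.571 CPM in at least 1 library), robust quasi-likelihood estimates, no covariate beside group, and Benjamini-Hochberg adjustment over all genes at 0.05. The fit has 1 residual degree of freedom plus a median of 12.5 borrowed across genes, and a common biological coefficient of variation of 29.3%. Ratios between single libraries used TMM-scaled counts with a prior count of 0.5 and have no test. Scripts were tested on simulated data. DESeq2 1.42.0 was an alternative test. Columns of no sample numbered 0.

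The correlations of same-numbered deviations lay between -0.023 and 0.008. In 3 groups the columns are counted as parts of 1 library, so these correlations cannot show whether the samples were paired. The members, the other lists and the tests were chosen with earlier results of these data known. Values in every library are given for genes named for their roles, the most abundant of each role, those past the test, and the 3 with the largest and 3 with the smallest ratio between the SIS3 libraries among members with a mean of 1 CPM or more. Other members given in full, and the pairs of related genes, were chosen after their values were seen. Promoters were the 250 bases before the start in RefSeq's table for GRCm38.p6, searched on both strands; members on chromosome 18 are not printed.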

Additional observations from a re-analysis of the deposited data

How the results depend on the processing

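One limit is the number of libraries: the 3 SMARTer groups count as 1 library each, and the SIS3 pair gives all the spread. The members' median log2 fold change for SB431542 stayed between -1.497 and -1.33 in every alternative run. For SIS3 it was -0.72 without SIS3 replicate 2 and 1.08 without SIS3 replicate 1, and between 0.45 and 0.65 in the other alternatives. For E13.5 it lay between 0.22 and 0.32, or 0.72 with only genes that average at least 5 CPM. The cause of these shifts was not tested.

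With all 8 columns as replicates the genes called were 259 for SB431542, 6764 for SIS3 and 9742 for E13.5, and the members called were 2, 6 and 13. With the replicate block they were 83, 6194 and 9260, and the members called were 1, 6 and 13; same-numbered columns were not paired by any label, and this fit treats near-identical columns as replicates. With the block, the SIS3 log2 fold change was -0.049 for Cdh1 and -0.044 for Col17a1, against 0.09 and 0.06. Without the filter, which adds low genes, the genes called were 27 for SB431542, 1414 for SIS3 and 2062 for E13.5, and 3 members were called for E13.5. With only genes that average at least 5 CPM they were 130 for SIS3 and 192 for E13.5, with 0 members. With DESeq2 they were 4 for SB431542 and 574 for E13.5, with 0 members. With the SIS3 and DMSO groups alone 232 genes were called for SIS3; this fit could not be made for SB431542 or E13.5, with 1 library on each side. With RLE size factors no count of calls moved by over 1.5 times.

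Leaving out each column in turn gave 0 to 1 genes called for SB431542, 399 to 903 genes for E13.5 (419 without E13.5 replicate 1, 399 without replicate 2 and 662 without E12.5 DMSO replicate 2, against 995) and 0 to 1 members for E13.5. Without either SIS3 column no test was possible, since no residual degree of freedom was left. Over the left-out columns the SIS3 log2 fold change ran from -0.76 to 1.39 for Trp63, -1.52 to 0.82 for Cdh1, 0 to 0.30 for Sp6, -1.81 to 1.15 for Foxi3, -1.43 to 1.20 for Dsp, -0.90 to 1.11 for Itgb4, -0.19 to 1.93 for Cldn4, -0.65 to 1.88 for Esrp1, -1.91 to 0.84 for Col17a1, -1.503 to 1.34 for Ap1m2, -0.80 to 2.69 for Pkp3 and -1.84 to 0.54 for Epcam. At E13.5, Sox2 (-0.003) ran from -0.069 to 0.112 and Itga6 (-0.055) from -0.159 to 0.057. Sox2 was 0.017 with all 8 columns and with the block, 0.045 with RLE size factors and with DESeq2, and 0.09 with only genes that average at least 5 CPM, where Itga6 was 0.038. Of the values of single members under alternatives with a test, 578 kept their direction and side of the threshold, 20 passed it only there, 5 lost it and 12 changed sign; without a test, 92 kept their direction and 12 changed sign.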
